A study of Arabidopsis thaliana with 28 samples.

Results

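The thaumatin-like family of Arabidopsis was followed across sorted root stem cells through 10 of its genes. The genes were AT2G28790, AT1G73620, AT1G18250 (ATLP-1), AT1G20030, AT1G75800, AT4G11650 (OSM34), AT4G38660, AT5G02140, AT1G75030 (TLP-3) and AT4G36010. They were picked from the family with AT2G28790 and AT1G73620 in the lead, which had the largest rise over non-stem cells in these same data. They are 10 of the 24 genes that the TAIR10.1 annotation names as thaumatin or osmotin genes, and 10 of the 33201 genes measured. Because the levels against non-stem cells chose the genes, those levels and the counts made from them are given below as a description, and support nothing.

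The 28 RNA-Seq samples hold cells that were sorted by fluorescence from the root tips of 5-day-old Col-0 seedlings, after digestion of the cell walls. Each population was marked by a reporter line. AGL42:GFP was the study's marker of the whole niche of stem cells (SCN, n = 4), taken to cover several types at once. The other reporters each mark 1 of 6 stem cell types. WOX5:GFP marks the quiescent center (QC, n = 3), CYCD6:GFP the initials of cortex and endodermis (CEI, n = 3), TMO5:3xGFP those of the xylem (Xyl, n = 4) and CVP2:NLS-VENUS the protophloem (Protophlo, n = 4). The enhancer trap J2341 marks the columella stem cells (CSC, n = 3). FEZ:FEZ:GFP, a fusion to the FEZ protein itself, marks the initials of the epidermis and of the lateral root cap (Epi/LRC, n = 3). The non-stem cells (NSC, n = 4) were the cells without GFP of the AGL42:GFP line, so SCN and NSC came from the same line, and all 7 comparisons with NSC share the same 4 control samples. A population is the set of cells in which its reporter is active. In such bulk samples, fewer cells of a type and less RNA per cell cannot be told apart.

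Thaumatin-like proteins are named after thaumatin, the sweet-tasting protein of the katemfe fruit. They are small, secreted proteins held together by many disulfide bonds, and make up class 5 of the pathogenesis-related proteins that plants produce on infection. Several members act against fungi, osmotin was found in tobacco cells adapted to salt, and a few family members carry a protein kinase behind the thaumatin domain. Apart from OSM34, the genes described here are annotated as family members with no further role given.

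Expression was given as FPKM, the fragments per kilobase of transcript and mega (M) mapped reads, which allows levels of different genes to be compared per length. From the steps between low values, the libraries were estimated to rest on 8.31 M to 34.0 M reads, and the NSC libraries on 18.6 M to 34.0 M. Of the genes that drive the reporters, 4 of 6 had their highest mean level in their own population. Among these, AGL42 had about the same mean in SCN and QC (14.5 FPKM in each). Its mean was 11.7 in CEI and 7.89 in Protophlo, but 1.74 in CSC, 0.124 in Xyl and 0.0234 in Epi/LRC, beside 1.75 in NSC. Whether cells of CSC, Xyl and Epi/LRC fell into SCN or into NSC was not tested, so both names stand for the sort by this reporter. Reads of FEZ in Epi/LRC may also come from the fusion to FEZ itself. CYCD6 was highest in CSC and CVP2 was highest in Xyl, against their labels, so the names CEI and Protophlo below stand for the sorted lines. By mean correlation over all tested genes, Epi/LRC replicates 1 and 3 were closest to QC, and the SCN libraries to QC or Protophlo. A pair of libraries stood apart further, as the only ones closer to NSC than to their own replicates. CEI replicate 2 correlated more with the NSC libraries (mean r = 0.907) than with its own replicates (0.819), and SCN replicate 1 did so to a lesser degree (0.820 against 0.800). For the genes whose level in SCN or CEI these libraries move most, the values without them are given as well.

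The shared label of the genes, high in stem cells, held for 4 of the 10. AT2G28790, AT1G73620, AT1G18250 and AT4G38660 were far above NSC in SCN, CEI, CSC and QC, and all of these but AT1G73620 in Xyl as well. AT4G36010 and AT1G75800 had their highest mean in NSC, and the other 4 genes were low in most libraries. Among the 24 family genes, the summed level was 439 ± 32.6 FPKM in NSC (SD, n = 4), 163 ± 20.0 in Protophlo (n = 4) and 206 ± 89.7 in Epi/LRC (n = 3). It was 1001 ± 713 in SCN (n = 4), 1084 ± 462 in CEI (n = 3), 1736 ± 469 in CSC (n = 3), 775 ± 117 in Xyl (n = 4) and 1184 ± 80.2 in QC (n = 3). Without SCN replicate 1 and CEI replicate 2 it was 1249 ± 627 in SCN (n = 3) and 1351 ± 10.1 in CEI (n = 2). A different gene led the family in different populations. AT2G28790 alone made up 45.8% of the family sum in SCN, 36.2% in CEI, 62.3% in CSC, 72.6% in Xyl and 65.6% in QC, and without the same libraries 47.0% in SCN and 39.9% in CEI. AT4G36010 made up 52.7% of it in NSC, and AT1G75800 led in Protophlo (45.8%) and Epi/LRC (32.1%).

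**Figure D1:**
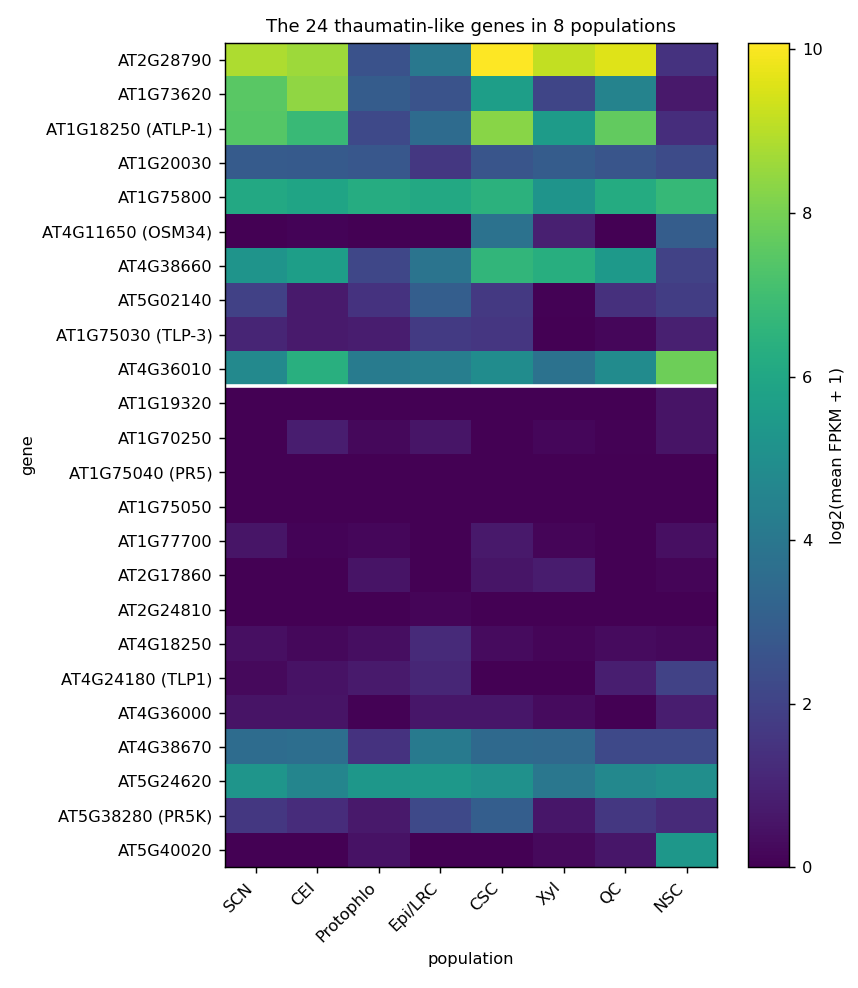
Mean level of the 24 thaumatin-like genes in the 8 populations, as the log2 of the mean FPKM + 1 (color scale), with the 10 genes described here above the white line and the other 14 below it. The strongest fields belong to AT2G28790 in CSC, QC and Xyl, while AT4G36010 and AT5G40020 are strongest in NSC.

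All 10 genes passed the filter on low values, 1 FPKM or more in 3 or more libraries, as did 22694 genes in all. For this description a gene was counted as higher or lower where its limma difference in log2(FPKM + 1) had an adjusted p-value under 0.06 and exceeded 2-fold. In SCN, 4 of the 10 genes were higher and 1 was lower, where 5.52% of all tested genes were higher and 8.89% lower. In CEI, 4 were higher and 0 lower, against 5.37% and 5.04% of all genes. Protophlo had 0 higher and 1 lower (3.51% and 10.5% of all genes), and Epi/LRC had 2 higher and 1 lower (12.5% and 16.6%). The counts were 4 higher and 1 lower in CSC (22.6% and 18.3% of all genes), 3 and 3 in Xyl (20.0% and 23.5%), and 4 and 1 in QC (9.31% and 9.49%). The genes were picked on this contrast, so nothing is read from these counts. The median difference of the 10 genes lay between -0.13 and 0.45 over the populations, where the median of all tested genes lay between -0.23 and 0.12.

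**Figure D2:**
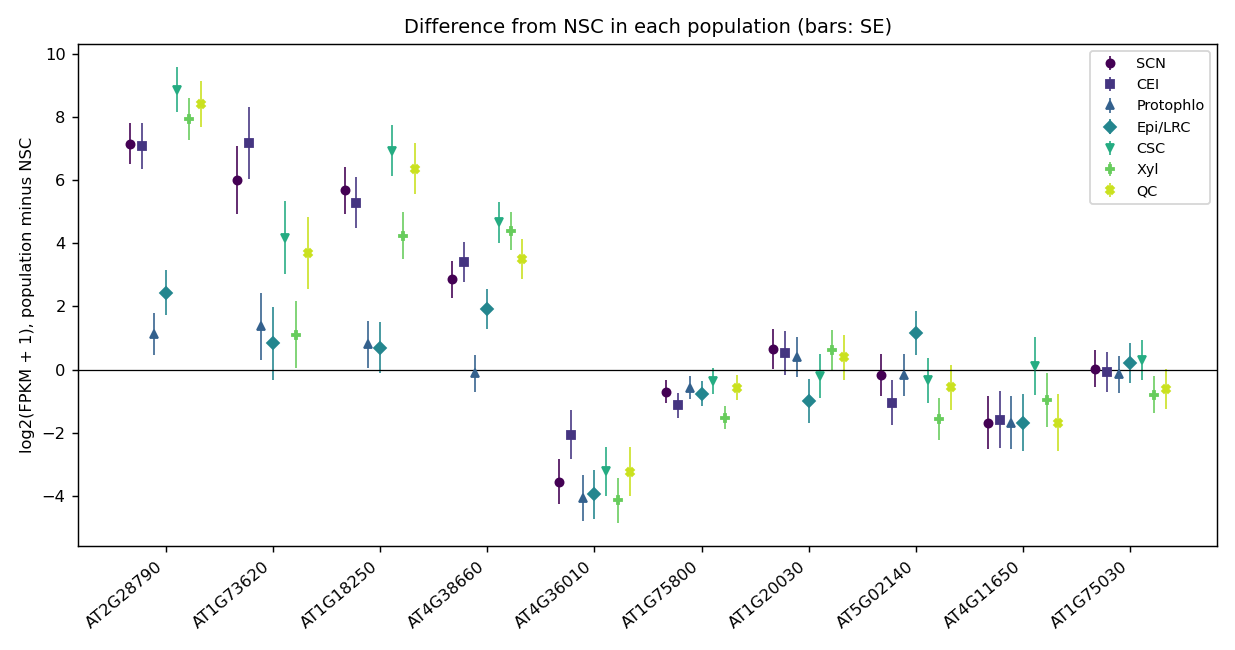
Difference of each population from NSC in log2(FPKM + 1) for the 10 genes, with the standard error from the limma fit over all genes as bars (populations of n = 3 or 4, by symbol). The 4 genes on the left reach 4.18 to 8.86 above NSC in CSC while staying between -0.11 and 1.38 in Protophlo, and AT4G36010 lies below NSC in every population.

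The 4 genes high in stem cells do not lie side by side in the genome. AT2G28790 (chr2:12354329-12355570, minus strand, TAIR10.1) has a single exon and a coding sequence of 750 bp. AT1G73620 (chr1:27681358-27683173, plus strand), AT1G18250 (chr1:6276777-6278258, minus strand) and AT4G38660 (chr4:18066030-18068293, minus strand) each have 3 exons, with coding sequences of 795, 732 and 1038 bp. The 250 bases before the annotated start of each are printed here because the 4 genes share their main contrast of levels. They are from the RefSeq TAIR10.1 genome, read 5′ to 3′ on the gene's strand, and run along chr2:12355571-12355820, chr1:27681108-27681357, chr1:6278259-6278508 and chr4:18068294-18068543. Capitals mark every match, on either strand, to TTTGAA (the core of the CHR element, a site of tesmin-like CXC proteins), AACGG (the core of the MSA element of MYB3R proteins), GCCGCC (the GCC box of ERF proteins) or TTGAC (the W box core of WRKY proteins).
AT2G28790: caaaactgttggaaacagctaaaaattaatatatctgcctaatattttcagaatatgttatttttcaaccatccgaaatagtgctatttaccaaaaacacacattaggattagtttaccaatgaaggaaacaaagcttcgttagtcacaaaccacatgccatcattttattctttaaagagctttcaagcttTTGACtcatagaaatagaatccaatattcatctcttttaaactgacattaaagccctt
AT1G73620: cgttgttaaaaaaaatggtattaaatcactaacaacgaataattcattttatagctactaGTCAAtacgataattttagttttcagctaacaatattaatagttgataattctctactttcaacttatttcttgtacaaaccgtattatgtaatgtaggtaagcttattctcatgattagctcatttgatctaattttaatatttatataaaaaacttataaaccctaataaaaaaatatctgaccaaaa
AT1G18250: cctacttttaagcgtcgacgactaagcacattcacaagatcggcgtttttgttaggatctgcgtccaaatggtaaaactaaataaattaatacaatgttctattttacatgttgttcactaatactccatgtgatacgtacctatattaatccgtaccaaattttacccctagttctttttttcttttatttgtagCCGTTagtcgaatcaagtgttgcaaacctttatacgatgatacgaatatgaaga
AT4G38660: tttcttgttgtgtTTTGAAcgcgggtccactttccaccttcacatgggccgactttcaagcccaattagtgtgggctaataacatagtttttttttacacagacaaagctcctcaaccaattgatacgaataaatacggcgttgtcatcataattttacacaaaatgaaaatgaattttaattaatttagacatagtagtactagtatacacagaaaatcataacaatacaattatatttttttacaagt

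Each of the 4 promoters held 1 match. TTGAC lay 58 bases before the start of AT2G28790 and, on the minus strand of the promoter, 190 bases before that of AT1G73620. AACGG matched the minus strand 54 bases before the start of AT1G18250, and TTTGAA lay 237 bases before that of AT4G38660. No motif was common to all 4. Over all 10 genes, TTTGAA was found in 2 promoters, AACGG in 2, GCCGCC in 1 and TTGAC in 5, where 38.8%, 20.6%, 1.87% and 44.9% of 27443 promoters of the same length held them. The GCCGCC match was in the promoter of OSM34, 72 bases before its start. A match describes letters in this window only.

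AT2G28790 was the most abundant of the 10 genes in 5 populations. Its FPKM in CSC was 1120, 821 and 1305, in QC 795, 827 and 709, and in Xyl 421, 574, 551 and 704. SCN gave 72.2, 863, 284 and 615, and CEI gave 551, 100 and 527. These populations lay entirely above the other 3 populations.

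Protophlo gave 1.71, 4.37, 2.89 and 10.6 FPKM of AT2G28790, Epi/LRC gave 3.65, 12.6 and 29.4, and NSC gave 0.806, 0.669, 5.36 and 0.437. These last values rest on 22, 10, 86 and 9 reads in NSC, against 7377 to 15714 reads in CSC. Of the 24 libraries of stem populations, 20 were above all 4 of NSC. The libraries of Protophlo overlapped those of NSC, as did Epi/LRC replicate 1. This overlap rests on NSC replicate 3 (5.36) alone. The other NSC libraries were at most 0.806, and every stem library was at 1.71 or more. By mean level the order was CSC (1082), QC (777), Xyl (563), SCN (458), CEI (393), Epi/LRC (15.2, or 8.13 without replicate 3), Protophlo (4.88, or 2.99 without replicate 4) and NSC (1.82). The gap to the next population exceeded the larger of both SDs between CSC and QC, between QC and Xyl and between CEI and Epi/LRC, and CSC and QC still overlapped in single libraries.

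In CSC, AT2G28790 ranked 70 of 33201 genes by mean level, and it ranked 88 in QC, 234 in Xyl, 264 in SCN and 336 in CEI (186 without SCN replicate 1 and 242 without CEI replicate 2). In NSC it ranked 16150. Its ratio of mean FPKM to NSC was 595 in CSC, 427 in QC, 310 in Xyl, 252 in SCN, 216 in CEI, 8.37 in Epi/LRC and 2.69 in Protophlo. These ratios hang on NSC replicate 3. Without it the mean of NSC was 0.638 FPKM, and the ratio was 1697 in CSC, 1218 in QC, 883 in Xyl, 719 in SCN, 616 in CEI, 23.9 in Epi/LRC and 7.66 in Protophlo. On the log2(FPKM + 1) scale, which understates the change of a gene with low values, the difference from NSC was 8.86 (SE 0.72) in CSC, or 9.35 without NSC replicate 3, and 7.08 (SE 0.72) in CEI. Without CEI replicate 2 it was 7.88 (SE 0.75) in CEI, and without SCN replicate 1 it went from 7.15 (SE 0.66) to 7.86 (SE 0.62) in SCN.

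AT1G73620, the other leading gene, had its highest means in CEI and SCN, of which that in SCN rests on a single library. Its FPKM in CEI was 450, 47.8 and 526, and in SCN 57.7, 543, 36.7 and 85.0. In CSC it was 54.9, 3.70 and 88.4, and in QC 32.4, 22.8 and 9.54. CEI replicates 1 and 3 and SCN replicate 2 stood above every other library. Without SCN replicate 2 the mean of SCN fell from 181 to 59.8 FPKM, beside 49.0 in CSC, whose libraries overlap the remaining ones of SCN.

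The remaining populations were low for AT1G73620. Xyl gave 4.10, 2.06, 6.74 and 0.0947 FPKM, Protophlo gave 9.64, 0.245, 16.4 and 0.260, and Epi/LRC gave 0, 14.4 and 0.450. NSC gave 0.259, 0.540, 0.629 and 0.980, which rest on 7, 8, 10 and 20 reads. Xyl replicate 4 rests on a count of 1 read, and the Epi/LRC library listed at 0 allows up to 0.197 FPKM, the value of 3 reads. Each of Xyl, Protophlo and Epi/LRC thus had libraries inside or below the range of NSC as well as above it.

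By mean level the order of AT1G73620 was CEI (341), SCN (181), CSC (49.0), QC (21.6), Protophlo (6.63), Epi/LRC (4.94), Xyl (3.25) and NSC (0.602). Without Epi/LRC replicate 2 the mean of Epi/LRC was 0.225, below that of NSC, and its difference from NSC in log2(FPKM + 1) was -0.39 (SE 1.21). The gap between QC and Protophlo alone exceeded the larger SD of both neighbors, and each pair of neighbors overlapped in single libraries. The difference from NSC in log2(FPKM + 1) was 7.16 (SE 1.14) in CEI, 6.0 (SE 1.06) in SCN, 4.18 (SE 1.14) in CSC and 3.68 (SE 1.14) in QC. It was 8.27 (SE 1.23) in CEI without replicate 2. In SCN it was 6.26 (SE 1.16) without replicate 1 and 5.18 (SE 1.08) without replicate 2, and in CSC 3.36 (SE 1.27) without replicate 3. Whereas AT2G28790 was at 421 to 704 FPKM in Xyl, AT1G73620 did not pass 6.74 there.

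**Figure D3:**
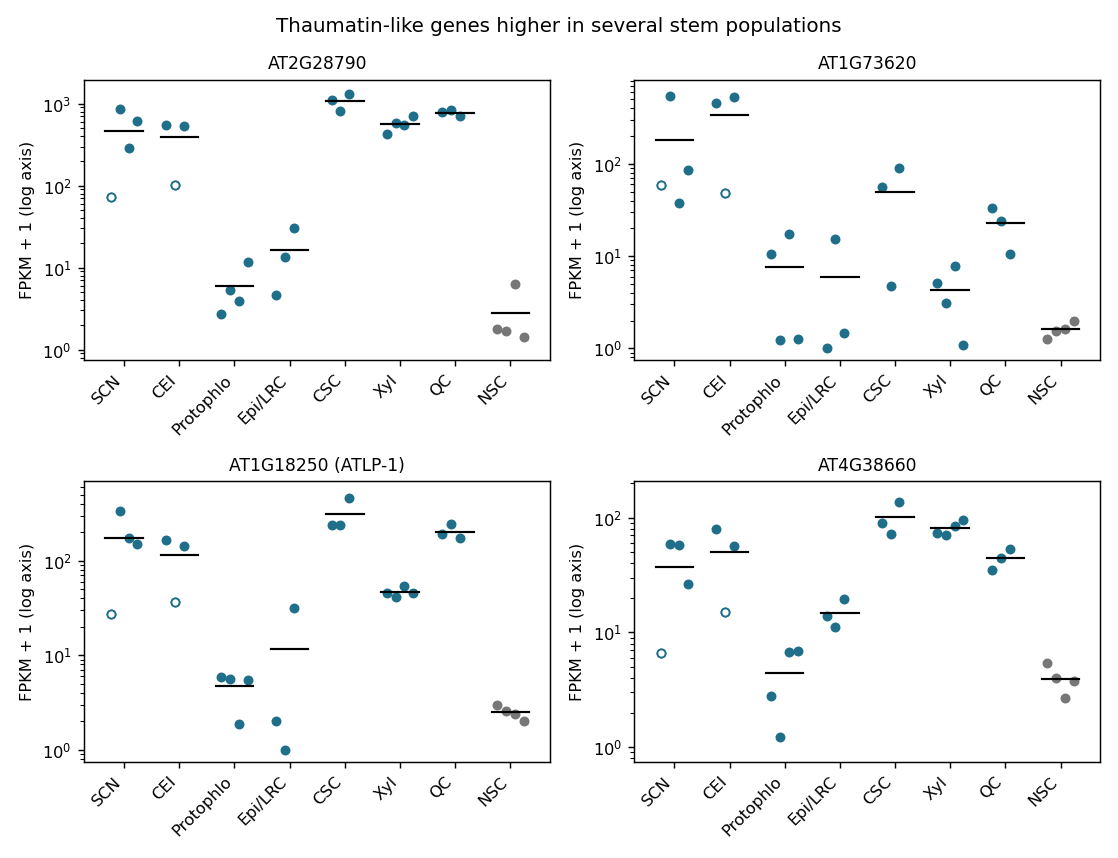
FPKM + 1 on a log axis of the 4 genes higher in several stem populations, with a point per library, a line at the mean of each population, NSC in gray, and SCN replicate 1 and CEI replicate 2 as open circles. The open circles are the lowest libraries of their population for AT2G28790, AT1G18250 and AT4G38660, and Protophlo lies near NSC for these 3 genes.

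AT1G18250, named ATLP-1 for Arabidopsis thaumatin-like protein, was at a lower level than AT2G28790. Like that gene, it had its highest means in CSC and QC and its lowest in Epi/LRC, Protophlo and NSC. Unlike for AT2G28790, the mean of AT1G18250 in Xyl lay below those in SCN and CEI. Its FPKM was 240, 240 and 460 in CSC, 189, 244 and 174 in QC, and 44.4, 40.6, 52.7 and 44.3 in Xyl. SCN gave 26.0, 339, 173 and 150, and CEI gave 166, 35.3 and 142. Protophlo gave 4.91, 4.55, 0.864 and 4.46, Epi/LRC gave 1.03, 0 and 30.5, and NSC gave 1.97, 1.56, 1.40 and 0.993. Protophlo and Epi/LRC overlapped NSC, and Epi/LRC replicate 3 was the only library of these 3 populations above 4.91.

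The mean level of AT1G18250 was 313 in CSC, 202 in QC, 172 in SCN, 114 in CEI, 45.5 in Xyl, 10.5 in Epi/LRC (0.513 without replicate 3), 3.70 in Protophlo and 1.48 in NSC. Gaps larger than the larger SD lay between Xyl and Epi/LRC and between Protophlo and NSC. The difference from NSC reached 6.93 in CSC, 6.36 in QC, 5.67 in SCN, 5.28 in CEI and 4.24 in Xyl. In SCN it was 6.40 without replicate 1, and in CEI it was 5.98 without replicate 2.

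AT4G38660 was at 89.5, 71.7 and 137 FPKM in CSC, 71.9, 69.0, 83.5 and 94.8 in Xyl, and 33.8, 43.7 and 52.0 in QC. CEI gave 78.7, 14.2 and 55.7, SCN gave 5.63, 57.6, 57.3 and 25.4, and Epi/LRC gave 13.0, 10.2 and 18.5. Protophlo gave 1.78, 0.230, 5.74 and 5.90, and NSC gave 4.39, 2.99, 1.66 and 2.79. Protophlo overlapped NSC, whereas all 3 libraries of Epi/LRC were above all of both. Its means were 99.3 in CSC, 79.8 in Xyl, 49.5 in CEI, 43.2 in QC, 36.5 in SCN, 13.9 in Epi/LRC, 3.41 in Protophlo and 2.96 in NSC, so that Xyl stood next to CSC for this gene, and below CSC, QC, SCN and CEI for AT1G18250. Among neighbors in this order, only Epi/LRC and Protophlo differed by more than the larger SD. The difference from NSC was 4.66 in CSC and 4.39 in Xyl, and in SCN it went from 2.86 to 3.55 without replicate 1 and in CEI from 3.41 to 4.13 without replicate 2.

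Whether the genes differed among the 6 single stem cell types was tested in a contrast without NSC and SCN, for the 8 genes other than the leading pair. All 28 libraries stayed in the fit, so SCN and NSC still entered the estimate of the spread. The 8 genes were chosen with their levels in these data known, which may favor genes that differ among types. Their p-values are therefore no independent support. By the limma F test with Benjamini-Hochberg adjustment over all genes, which passed 53.5% of all tested genes, 3 of the 8 differed. These were AT1G18250 (adjusted p = 1.25e-06), AT4G38660 (6.94e-06) and AT5G02140 (0.0420). The call of AT5G02140 was lost in 7 of the 36 other settings tried, among them the fits without Epi/LRC replicate 2 (adjusted p = 0.171) and without any single library of Xyl. AT1G75800 missed the threshold (adjusted p = 0.0999), but passed it without CEI replicate 2 (0.00680). AT4G36010 (0.171), AT1G20030 (0.312), OSM34 (0.448) and TLP-3 (0.541) did not pass.

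Over the 15 pairs of types, 18 of the 120 comparisons of these 8 genes passed the threshold, and over all genes 1.64% to 44.0% passed in a pair (median 12.8%). For AT1G18250, 9 of 15 pairs passed. Protophlo minus CSC was -6.13 in log2(FPKM + 1) (SE 0.81, limma adjusted p = 3.86e-06, in a pair in which 43.7% of all genes passed), and Epi/LRC minus CSC was -6.23 (SE 0.87, adjusted p = 3.18e-05, 10.1% of all genes). CEI, Xyl and QC were each above both Protophlo and Epi/LRC as well, in pairs in which 14% and 4.45%, 44.0% and 9.79%, and 20.2% and 1.64% of all genes passed. Among the 4 types with a high level, CSC was above Xyl by 2.69 (SE 0.81, adjusted p = 0.0280, 12.8% of all genes), a call that was lost with a pseudocount of 0.1 (2.72, adjusted p = 0.130) and without CSC replicate 3, and no other pair passed, where 1.73% (CEI and QC) to 17.8% (Xyl and QC) of all genes did. CEI and CSC (14.1%), CEI and Xyl (11.6%) and CSC and QC (7.74%) lay between. The lower level of Xyl against QC gave -2.12 (SE 0.81, adjusted p = 0.0741), and Protophlo and Epi/LRC gave 0.10 (SE 0.81, adjusted p = 0.969).

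For AT4G38660, 7 pairs passed. Protophlo was below each of the other 5 types, with a difference of -4.50 to Xyl (SE 0.59, limma adjusted p = 2.57e-06, 44.0% of all genes) and of -2.03 to Epi/LRC (SE 0.64, adjusted p = 0.0191, 28.3% of all genes). The latter call was lost without Protophlo replicate 2 and without Epi/LRC replicate 3, with an adjusted p of up to 0.0842. Epi/LRC was in turn lower, with a difference of -2.73 to CSC (SE 0.68, adjusted p = 0.0115) and of -2.46 to Xyl (SE 0.64, adjusted p = 0.0130). CSC and Xyl gave 0.27 (SE 0.64, adjusted p = 0.891). The other 2 passing pairs were AT5G02140, higher in Epi/LRC than in Xyl by 2.72 (SE 0.71, adjusted p = 0.0138, or 0.0875 without Epi/LRC replicate 2), and AT1G75800, higher in CSC than in Xyl by 1.16 (SE 0.40, adjusted p = 0.0567). The call of AT1G75800 was lost in 22 of the 36 other settings, with adjusted p-values from 0.0152 to 0.270 over all of them. For AT1G20030, OSM34 and TLP-3 limma passed 0 of 15 pairs, with 1, 0 and 0 at an unadjusted p-value under 0.05.

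AT4G36010 had the opposite distribution. The gene lies next to AT4G36000, another family gene. NSC gave 222, 275, 217 and 210 FPKM, and all 24 libraries of the stem populations were below all 4 of them. The highest stem library was CEI replicate 2 at 183, beside 38.5 and 22.8 in the other CEI libraries. SCN gave 4.82, 28.4, 53.4 and 15.8, CSC gave 55.0, 15.3 and 16.0, and QC gave 17.3, 14.6 and 52.5. Protophlo gave 2.63, 23.8, 11.5 and 31.4, Epi/LRC gave 7.09, 40.2 and 9.17, and Xyl gave 14.2, 18.8, 10.7 and 7.56. All 3 libraries of CEI were above all 4 of Xyl.

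The mean of AT4G36010 was 231 FPKM in NSC, where it ranked 609 of 33201 genes, against 81.4 in CEI (30.6 without replicate 2), 28.7 in CSC, 28.1 in QC, 25.6 in SCN, 18.8 in Epi/LRC, 17.3 in Protophlo and 12.8 in Xyl. The differences from NSC lay between -4.13 (SE 0.72) in Xyl and -3.21 (SE 0.78) in CSC, with CEI at -2.05 (SE 0.78). Without CEI replicate 2, the difference in CEI was -2.91 (SE 0.82). By limma, 0 of the 15 pairs of types passed for this gene, and 3 had an unadjusted p-value under 0.05.

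AT1G75800 was expressed in every library, at 27.0 to 129 FPKM. NSC gave 106, 98.5, 120 and 101 FPKM and Xyl gave 38.3, 36.5, 38.2 and 32.9, the lowest mean of all populations. CSC gave 82.2, 52.6 and 129, QC gave 62.1, 70.1 and 83.5, and SCN gave 47.6, 87.0, 63.3 and 69.8. Protophlo gave 106, 80.3, 67.3 and 45.5, Epi/LRC gave 37.1, 72.9 and 88.0, and CEI gave 35.3, 114 and 27.0. Of the 24 stem libraries, 21 were below all 4 of NSC. The difference of Xyl from NSC was -1.52 (SE 0.37), and CEI went from -1.13 (SE 0.40) to -1.75 (SE 0.37) without replicate 2, as its mean went from 58.8 to 31.2 FPKM.

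**Figure D4:**
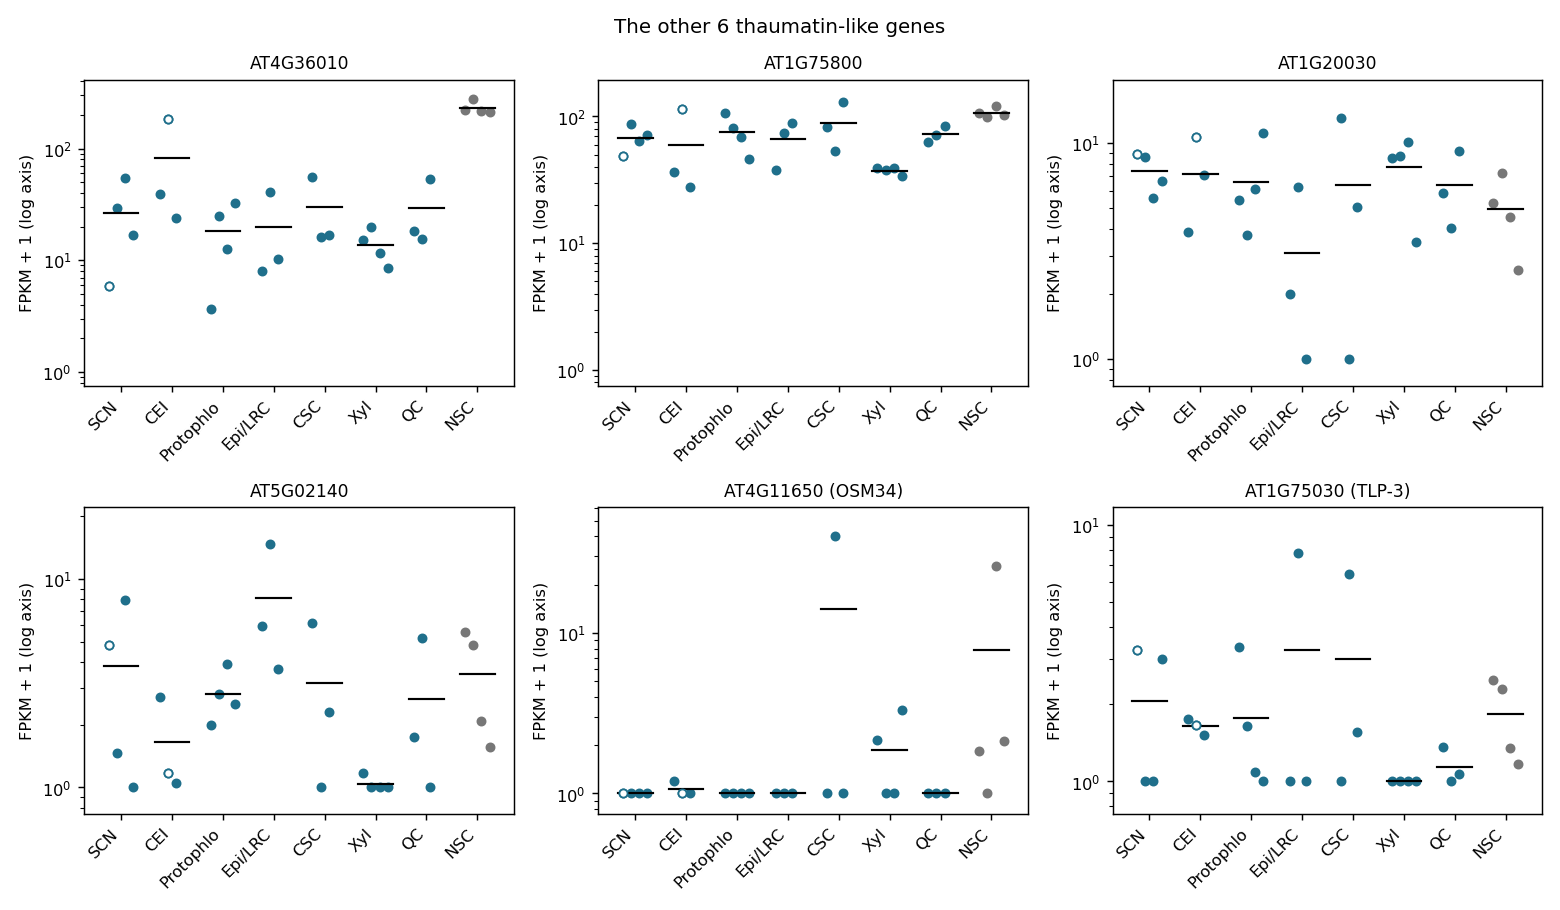
FPKM + 1 on a log axis of the other 6 genes, with a point per library, a line at the mean of each population, NSC in gray, and SCN replicate 1 and CEI replicate 2 as open circles. AT4G36010 is highest in the 4 NSC libraries, AT1G75800 is above 20 in every library and lowest in Xyl, 2 libraries of CEI and 1 of Epi/LRC, and OSM34 is raised in a few scattered libraries.

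The other 4 genes were low. AT1G20030, the closest relative of AT1G75800 among the 10 by coding sequence, ranged from 0 to 12.1 FPKM over the stem libraries and from 1.59 to 6.27 in NSC. OSM34, the Arabidopsis osmotin, was listed at 0 in 21 of 28 libraries, which allows at most 0.119 to 0.339 FPKM, the value of 3 reads in each library. It was at 39.4 FPKM in CSC replicate 2 (371 reads) and 25.3 in NSC replicate 3 (424 reads), with 0 in both other CSC libraries and 0.841, 0 and 1.11 in the other NSC libraries. The remaining values were 1.15 and 2.33 in Xyl and 0.192 in CEI replicate 1. OSM34 was thus detected in 3 of 4 libraries of NSC, 2 of 4 of Xyl, 1 of 3 of CSC and 1 of 3 of CEI.

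AT5G02140 was at 4.96, 13.7 and 2.70 FPKM in Epi/LRC. In Xyl it was at 0.176, 0, 0 and 0, and in NSC at 4.55, 3.84, 1.09 and 0.569. No library of Xyl reached the range of Epi/LRC or NSC, and the difference of Xyl from NSC was -1.56 (SE 0.66). That difference passed the threshold in 19 of the 36 other settings, and ranged from -3.92 to -1.27 over them. The gene overlaps AT5G00815, AT5G00820 and AT5G02150 in the annotation, so reads cannot be assigned to it with certainty. TLP-3 was listed at 0 in 11 of 28 libraries, including all 4 of Xyl, and its highest value was 6.80 in Epi/LRC replicate 2. Its coding sequence is 86.2% identical to that of AT1G75050 and 79.4% to that of PR5, which follow it on chromosome 1. Both of these were listed at 0 in all 28 libraries.

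Over the 45 pairs of the 10 genes, identity of sequence and correlation of level had a Pearson r of 0.17 and a Spearman rho of 0.12, given as a description since the pairs share genes and libraries. Their coding sequences were 57.8% to 81.7% identical, with a median of 62.7%. AT1G73620 and AT1G18250 were the closest at 81.7%, and their levels correlated with r = 0.64 over the 28 libraries on the log2 scale. AT2G28790 and AT1G18250, at 60.1% identity, had the highest correlation (r = 0.93). AT1G20030 and AT1G75800 were 75.6% identical, with r = -0.02. Among the 4 genes high in stem cells the 6 correlations ranged from 0.47 to 0.93, and among all pairs from -0.46 to 0.93. All of these are over the same libraries, so depth and sort are shared by every pair, and reads of similar genes may be split between them.

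**Figure D5:**
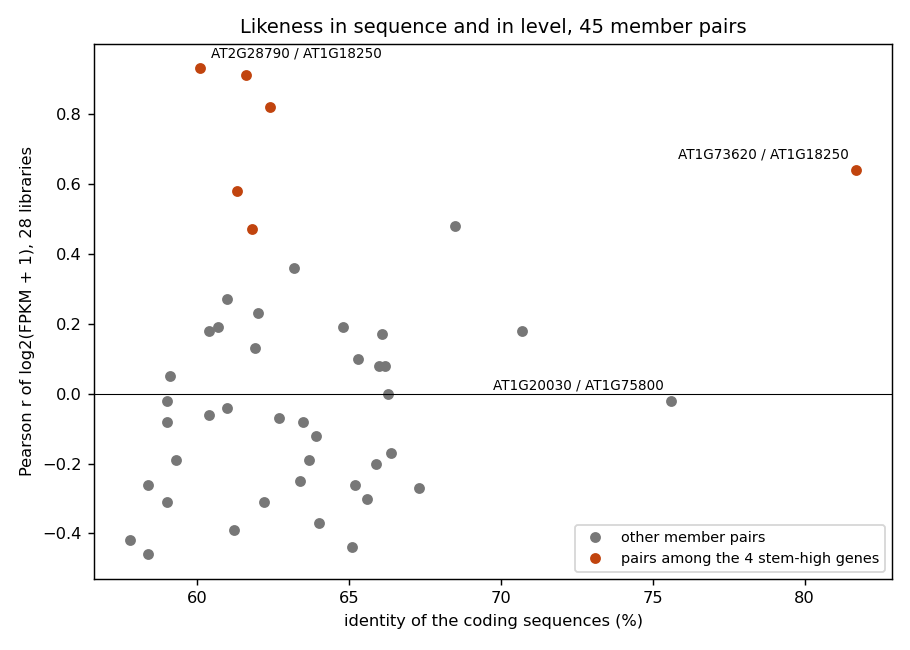
Identity of the coding sequences in percent (x axis) against the Pearson r of log2(FPKM + 1) over 28 libraries (y axis), with a point for each of the 45 pairs of the 10 genes. The pair with the highest r (0.93) has 60.1% identity, and the most similar pair in sequence (81.7%) has an r of 0.64.

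Over all tested genes, the 5 whose levels were most like AT2G28790 over the 28 libraries were AT1G29980 (r = 0.97), which encodes a DUF642 protein, RTFL15 (0.95), a small peptide of the ROTUNDIFOLIA-like group, BBM (0.94), an AP2-type transcription factor, AT1G18250 (0.93) and the leucine-rich repeat kinase gene AT5G67200 (0.93). AT1G29980 had a mean of 220 FPKM in CSC and 1.64 in NSC, and BBM had 77.7 and 0.929. AT4G38660 stood at place 14 (r = 0.91) and AT1G73620 at place 2838 (r = 0.58). The genes most like AT1G73620 were MIPS3 (0.86), which makes inositol phosphate, GLV9 (AT5G15725, 0.86), a secreted GOLVEN peptide, AT2G07716 (0.83), ATMG01330 (0.82) and RGF4 (0.82), a root meristem growth factor. RGF4 had a mean of 74.7 FPKM in CEI and 0.466 in NSC, and MIPS3 had 74.9 and 0.578. AT1G18250 stood at place 114 for AT1G73620 (r = 0.64).

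The other 14 family genes held few high values. Of these, 9 passed the filter, and over their 63 comparisons with NSC 1 was higher and 13 were lower, where 3.51% to 22.6% of all genes were higher and 5.04% to 23.5% lower in a population. AT5G40020 was at 44.5, 39.2, 24.3 and 48.4 FPKM in NSC and at most 1.63 in any stem library, and was listed at 0 in most of them. It was lower in all 7 populations, from -5.28 (SE 0.36, limma adjusted p = 1.11e-10) in SCN to -4.82 (SE 0.39, adjusted p = 2.36e-09) in QC. TLP1 (AT4G24180), at 2.12 to 4.30 FPKM in NSC, was lower in 6 of the 7 populations, by -1.97 in CSC (SE 0.46, adjusted p = 0.00152) to -1.38 in QC (SE 0.46, adjusted p = 0.0381), and was listed at 0 in all libraries of CSC and Xyl. With a pseudocount of 0.1 its calls in CEI (adjusted p = 0.126), Protophlo (0.0749) and QC (0.0725) were lost, and each was also lost in 4 of the fits without a single library. AT4G38670, the neighbor of AT4G38660, was higher in Epi/LRC by 1.90 (SE 0.71, adjusted p = 0.0464), at 11.6, 26.7 and 12.7 FPKM against 1.94 to 4.97 in NSC. That call was lost in 10 of the 36 other settings. AT4G38670 overlaps AT4G38680 in the annotation, so its reads cannot be assigned with certainty. AT5G24620 was at 11.4 to 72.7 FPKM in all libraries and passed in no population. In Xyl its difference was -0.98 (SE 0.40, limma adjusted p = 0.0469), which fell short of 2-fold. Reads of AT5G24620, which overlaps AT5G03805 and AT5G24630, cannot be assigned with certainty either.

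None of the classical pathogenesis-related and defense genes tested was higher than NSC in a stem population. Of the list of 6, PR3 (a chitinase) and PR4 (a hevein-like protein) passed the filter, and 13 of their 14 comparisons by limma were lower and 0 higher, also 0 at an unadjusted p-value under 0.05, where 5.04% to 23.5% of all genes were lower in a population. PR4 was at 175, 189, 279 and 241 FPKM in NSC, and its difference was -3.92 in Xyl (SE 0.69, limma adjusted p = 6.75e-05) and -2.04 in SCN (SE 0.69, adjusted p = 0.0472), the latter lost in 11 of the 36 other settings. CEI replicate 2 reached 193 FPKM of PR4, beside 28.9 and 8.12 in the other CEI libraries. PR3 was at 22.6 to 51.5 FPKM in NSC, with a difference of -5.15 in CSC (SE 0.88, adjusted p = 8.01e-05). PR1, PR2, PR5 and PDF1.2A did not pass the filter, and PR2 and PR5 were listed at 0 in every library.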

How the data were processed

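The authors digested root tips, sorted cells by fluorescence, made libraries with a low-input SMART-Seq kit and sequenced single-end reads. They deposited FPKM per gene and library. Mapping used Bowtie, Tuxedo and Rsubread, and the submitters' processing notes name TopHat2 2.0.13, Cufflinks 2.1.1 and TAIR10. Normalization between libraries beyond FPKM is not given in the sources used here. Columns that were matched to no sample numbered 0, and the CEI columns were matched by elimination. The highest correlation between any libraries was 0.978, and none were merged.

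The deposited values were used as log2(FPKM + 1). Genes that reached 1 FPKM in 3 or more libraries were fitted in limma 3.58.1 (R 4.3.3, empirical Bayes with a trend), with a mean per population over all 28 libraries and Benjamini-Hochberg adjustment within each comparison. The thresholds were an adjusted p-value of 0.06 and 2-fold. The study's own test takes counts and was not used. The fit was tested on simulated data. The 10 genes, the lists and the settings were chosen with earlier results of these data known. The text names the 10 genes, other family genes past the threshold or with a mean of at least 10 FPKM in a population, the 6 pathogenesis-related genes and the 5 genes most correlated with each leading gene.

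Read numbers come from the steps between low FPKM values, which assume a mean fragment of 200 bp. Between 34.4% and 62.6% of low values per library lay within 0.05 of a whole read, so no count test was run. Read numbers are given only for genes with even steps, and intervals and floors cover counting error only. Coordinates, coding sequences and promoters are from the RefSeq TAIR10.1 annotation and genome, matched by locus identifier, since the deposited table holds no coordinates. Over all populations, same-numbered libraries did not deviate together (median r = -0.0154 over 90 pairs), and no pairing was used. That median pools all populations, so a pairing of SCN with NSC, which came from the same line, was not tested on its own. As alternatives the pseudocount was 0.1, all 31526 nonzero genes were kept, or the fit used size factors, TPM, a replicate block, no trend, an adjusted p-value of 0.05, each of the 28 libraries left out, and, chosen after seeing the data, SCN replicate 1 and CEI replicate 2 left out together. Sequences were compared with Biopython 1.88, and figures drawn with matplotlib 3.10.9 under Python 3.11.15.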

Additional observations from a re-analysis of the deposited data

Results flagged for a closer look

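Of 37 groups of 4 libraries of the 10 genes, 5 held a library whose gap to its nearest neighbor took up more of the range of the group than Dixon's 95% limit. For normally distributed values, chance alone gives about 1 such group in 20. FPKM with many libraries at 0 are not normally distributed, so no excess of such groups is read from these counts. For AT2G28790, NSC replicate 3 had 5.36 FPKM beside 0.437, 0.669 and 0.806. For OSM34 (AT4G11650), the same library had 25.3 beside 0, 0.841 and 1.11. For AT1G73620, SCN replicate 2 had 543 beside 36.7, 57.7 and 85.0. For AT1G18250, Protophlo replicate 3 had 0.864 beside 4.46, 4.55 and 4.91. For AT5G02140, Xyl replicate 1 had 0.176 beside 3 libraries at 0. Such a group is flagged whatever the size of its single value, which here rests on 1 read.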

How the results depend on the processing

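Over the 36 alternatives, no called difference changed direction. Against NSC, the contrast on which the 10 genes were chosen and from whose counts nothing is read, the 21 higher differences were 21 under every alternative but the fits that leave out 1 library, which gave 19 to 21, and the 8 lower ones were 7 to 10 over all alternatives. Without 1 library, the genes that differed among the 6 types numbered 2 to 4 (3 with all libraries), and the pairs of types 16 to 20 (18 with all). Without SCN replicate 1 and CEI replicate 2 together these counts were 4 and 22, and 21 and 9 against NSC. Of the other family genes, the 1 higher difference became 0 with a pseudocount of 0.1, with all genes of a nonzero value, with size factors and with the replicate block, and 2 without a trend. Leaving out 1 library gave 0 to 2 there, 10 to 14 for the lower ones (13), and 9 to 14 for the lower pathogenesis-related ones (13). The replicate block gave 21 higher and 8 lower, 3 genes among types and 17 pairs for the 10 genes, and 4 of 28 libraries correlated best with a library of their own number. Size factors moved the median of all genes against NSC by -0.30 in CSC, -0.22 in QC, -0.14 in Epi/LRC and -0.11 in SCN and Xyl, and the share of higher among all called genes from 55.2% to 38.1% in CSC, from 49.5% to 29.7% in QC and from 25.1% to 35.8% in Protophlo. The cause of these changes was not tested. In the low genes the depth limits what can be told: a library at 0 still allows up to 0.510 FPKM of TLP-3.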
